A study of Mus musculus with 58 samples.

Results

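Voltage-gated ion channels open and close with the membrane potential, and they set how neurons fire and release transmitter. Sodium channels (most Scn genes) start the action potential, and calcium channels (Cacna1 genes) couple it to transmitter release and calcium entry. Potassium channels (Kcna to Kcnd, Kcnh and Kcnq genes) end the action potential and set the resting and threshold currents. Their transcripts were measured in mice with traumatic brain injury (TBI) or sham surgery, in hippocampus and cortex pooled from 1 coronal slice that held the injury site, so neither region was sampled whole. The genes were taken by symbol: those beginning with Kcna, Kcnb, Kcnc, Kcnd, Kcnh, Kcnq or Cacna1, and those that read Scn, a number and a. This matched 48 of the 15171 genes listed; one antisense transcript (Kcnd3os) was dropped, which left 47, and all 47 passed the filter on low counts. The prefixes also took in Kcnab1, Kcnab2 and Kcnab3, which are cytoplasmic beta subunits of Kv1 channels without a pore, and Kcnq1ot1, a long noncoding RNA. No source used here says that counting used strand, so reads of Kcnq1ot1 cannot be told apart from those of Kcnq1, which it overlaps in antisense.

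The 58 mice were C57BL/6 targeted replacement animals of both sexes, 3 months old at surgery, that carried human APOE3 or human APOE4 in both copies of the Apoe gene, with 2 functional copies of the lipid transporter gene Abca1 (Abca1+/+) or 1 (Abca1+/-). TBI was a controlled cortical impact on the left parietal cortex after a craniotomy, and sham mice received the craniotomy without the impact, so both carried the surgery. Tissue was taken 14 days later. The 8 groups were E3/Abca1+/+ sham (n = 8) and TBI (n = 8), E3/Abca1+/- sham (n = 7) and TBI (n = 6), E4/Abca1+/+ sham (n = 7) and TBI (n = 7), and E4/Abca1+/- sham (n = 7) and TBI (n = 8). Each mouse gave 1 library of 4421308 to 37877346 counts. Levels are given as CPM, the counts of a gene scaled to the TMM-adjusted total of its library, and differences as log2 fold changes with their standard error (SE). A gene was called when its Benjamini-Hochberg adjusted p over all 15171 genes was under 0.05 in edgeR's quasi-likelihood test, and all adjusted p-values are from that test.

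Some libraries stood apart. Libraries from 7 mice had outlying scores of hippocampal, thalamic or striatal neuron genes within their group. The farthest was E4/Abca1+/- TBI replicate 8, with a mean log2(CPM + 1) of 5.99 over the striatal genes against at most 3.69 in the other 7 mice of its group, and of 2.33 over the hippocampal genes against at least 3.98. Among the channel genes, some results that this mouse changes are given with and without it, and others with all mice only. Scores of other cell types had outlying mice as well. E3/Abca1+/+ TBI replicate 8 was the lowest of its group over the pan-neuronal genes (8.43, next 8.61) and was kept throughout. Abca1 itself was lower in Abca1+/- than in Abca1+/+ mice over all groups (log2 fold change -0.42, SE 0.09, adjusted p = 0.000816).

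In sham mice the mean levels of the 47 genes spanned from 0.661 CPM (Cacna1s) to 623 CPM (Kcnab2). Compared per kilobase of exon, which allows levels of different genes to be set side by side, the highest mean sham level was that of the beta subunit Kcnab2 (112 CPM per kb). Among the pore-forming subunits with high levels were Kcna1 (53.5 CPM per kb), which encodes the axonal delayed rectifier Kv1.1, Scn2a (35.5), Kcna2 (30.3), Kcnc4 (27.8) and Scn8a (27.0). The sodium channels of adult neurons, Scn1a, Scn2a and Scn8a, had 17.7 to 35.5 CPM per kb, against 0.306 for Scn9a, which is known from sensory neurons. The skeletal muscle calcium channel Cacna1s (0.661 ± 0.284 CPM, SD, n = 29) and Kcnh8 (0.716 ± 0.383 CPM) were the lowest in CPM. In these 2 genes the counts were too low for a firm statement, with means of 11.1 and 8.69 counts per mouse.

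After TBI every channel gene that was called was lower, in each genotype. In E3/Abca1+/+ mice 26 of the 47 genes were lower after TBI, against 10.8% of all genes, and 0 were higher, against 12.5% of all genes. In E3/Abca1+/- mice 22 were lower (10.1% of all genes) and 0 higher (13.7%). In E4/Abca1+/+ mice 19 were lower (4.98% of all genes) and 0 higher (9.08%). In E4/Abca1+/- mice 29 were lower (16.3% of all genes) and 0 higher (17.7%). In either direction 23.3%, 23.8%, 14.1% and 34.0% of all genes were called in that order. At an unadjusted p under 0.05, 0 members were higher in the first 3 genotypes and 1 in E4/Abca1+/- mice, and DESeq2's Wald test called 0 higher in each. The median log2 fold change over the 47 genes was -0.27, -0.21, -0.22 and -0.34 in the same order, while that over all genes lay between -0.00427 and 0.00818. Called or not, 6, 8, 4 and 4 of the 47 genes had a log2 fold change above 0.

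Averaged over the 4 genotypes, 34 of the 47 genes were lower after TBI (24.3% of all genes) and 0 were higher (29.0%; 53.3% in either direction). At an unadjusted p under 0.05, 2 were higher, and DESeq2's Wald test called 0 higher. The 47 genes had a median log2 fold change of -0.25 against 0.01 over all genes. These are bulk tissue values, each a share of its library. Fewer neurons, less RNA per neuron and more RNA from other cells therefore cannot be told apart. Of the 16 pan-neuronal marker genes, 12 were lower and 1 higher over the genotypes (median log2 fold change -0.20), and their summed level ranged from 11780 to 13007 CPM in sham and from 8985 to 11839 CPM in TBI mice. All 8 markers of excitatory neurons and 7 of 8 of inhibitory neurons were lower. All 10 microglial markers were higher (summed level 346 to 551 CPM in sham and 649 to 1421 CPM in TBI mice), as were all 8 astrocytic markers (5488 to 7027 CPM in sham and 7048 to 11324 CPM in TBI mice). Of the regional lists, 3 of 14 hippocampal genes were lower and 1 higher, 7 of 14 cortical layer genes lower and 1 higher, 1 of 9 thalamic genes lower and 6 higher, and 0 of 8 striatal genes lower and 1 higher. Higher were also 4 of 8 oligodendrocyte and 5 of 6 endothelial markers, and 0 of 7 choroid plexus markers were called. The part of these cell types in the fall of the channel genes was not tested beyond the scaling to neuronal genes given further on. The part of a different make-up of regions in the slices was not tested.

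**Figure D1:**
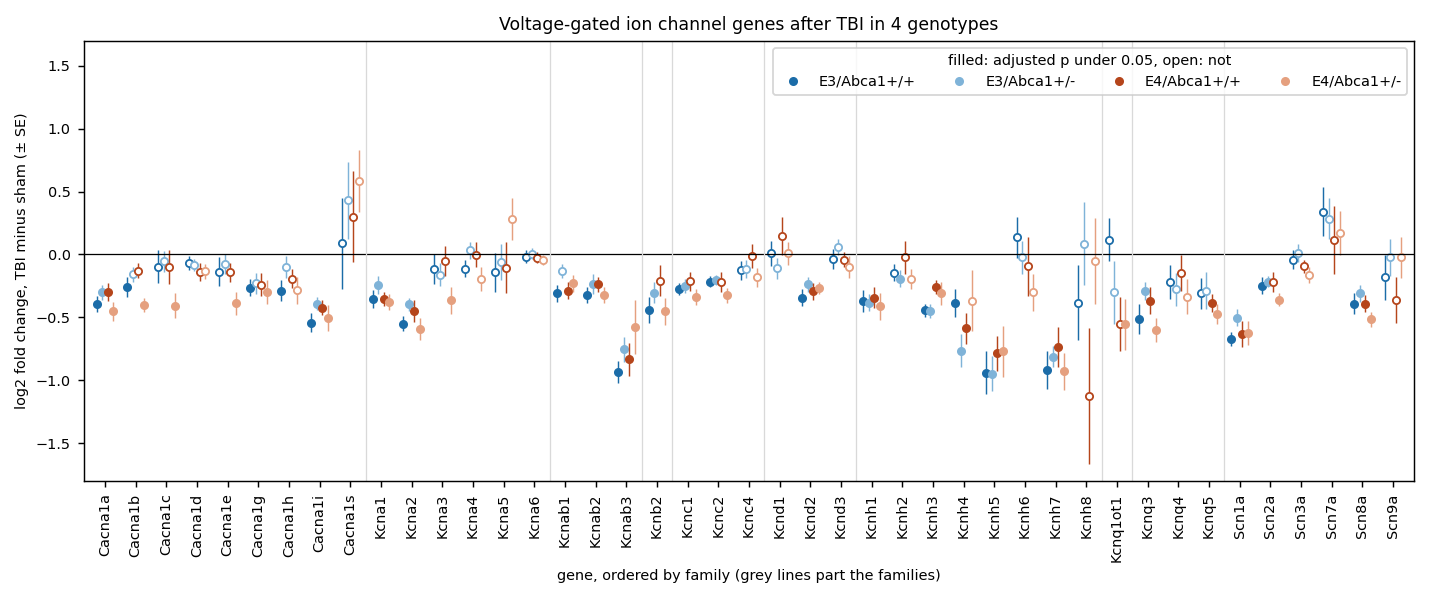
Log2 fold change of TBI minus sham (y axis, bars: ± SE) of 43 of the 47 channel genes (x axis, by family) in each of the 4 genotypes (colors), with filled points past an adjusted p of 0.05. Filled points all lie below 0. Averaged over the genotypes, Kcnh5, Kcnh7, Kcnab3 and Scn1a fell most among the genes called in all 4 genotypes, an order that does not hold within each genotype.

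A set of 16 genes was called lower in all 4 genotypes, against 3.00% of all genes. Among them were the calcium channels Cacna1a and Cacna1i, the potassium channels Kcna1, Kcna2, Kcnd2, Kcnh1, Kcnh3, Kcnh5, Kcnh7 and Kcnq3, the sodium channels Scn1a and Scn8a, and the beta subunits Kcnab2 and Kcnab3. A further 16 genes were called in 1 to 3 genotypes and 15 in none; 32 were called in at least 1 (20.9% of all genes). The genes called in no genotype had a median sham level of 5.18 CPM and 9 of the 15 had under 10 CPM, whereas those called in all 4 had a median of 143 CPM and 0 under 10 CPM. Low counts limit what can be said of those 9. Kcna6, Kcnd3, Kcnc4, Scn3a, Cacna1d and Kcna4, also called in no genotype, had higher levels and are described with their families.

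The Kcnh family encodes the ether-a-go-go (Eag), Erg and Elk potassium channels, which shape the resting potential and spike-frequency adaptation. It held 4 of the 16 genes called in all genotypes and the largest falls of the whole group. Kcnh5, an Eag channel, had 15.9, 18.4 and 23.4 CPM (lowest, median and highest) in E3/Abca1+/+ sham mice and 4.81, 9.55 and 17.6 CPM in E3/Abca1+/+ TBI mice. In E4/Abca1+/+ mice the same values were 13.8, 24.0 and 25.1 CPM in sham and 9.15, 11.4 and 15.7 CPM in TBI mice. The groups overlapped by a few mice in each genotype, and 23 of 29 TBI mice lay below every sham mouse of their own genotype. Over the genotypes Kcnh5 fell by 0.85 on the log2 scale (SE 0.09, adjusted p = 1.32e-11).

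Kcnh7, an Erg channel of the brain, had 24.7, 33.9 and 36.7 CPM in E3/Abca1+/- sham mice and 16.7, 18.8 and 20.0 CPM in E3/Abca1+/- TBI mice, with no overlap. Its values were 29.1, 35.8 and 37.9 CPM in E4/Abca1+/- sham and 12.8, 16.5 and 30.7 CPM in E4/Abca1+/- TBI mice, where only replicate 8 reached into the sham range. Over the genotypes it fell by 0.84 (SE 0.08, adjusted p = 7.48e-14), and 25 of 29 TBI mice lay below every sham mouse of the study. Other genes of the family covered a range. The Erg gene Kcnh2 had a log2 fold change of -0.13 (SE 0.05, adjusted p = 0.018), the Eag gene Kcnh1 of -0.37 (SE 0.05, adjusted p = 4.80e-09) and the Elk gene Kcnh3 of -0.35 (SE 0.04, adjusted p = 1.80e-12).

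Kcnh4, another Elk gene, was called in 3 genotypes and rested on single mice in the remaining one. The remaining genotype, E4/Abca1+/-, had 7.13, 8.66 and 14.0 CPM in sham and 5.14, 6.09 and 17.8 CPM in TBI mice. The log2 fold change there was -0.37 (SE 0.24, adjusted p = 0.264), and -0.69 (adjusted p = 0.000521) without TBI replicate 8, the mouse at 17.8 CPM. Over the genotypes Kcnh4 fell by 0.51 (SE 0.09, adjusted p = 1.63e-06).

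Kcna genes encode Kv1 channels, which lie at axon initial segments, next to nodes of Ranvier and at terminals. Kcna2, the most abundant of them in CPM, ranged from 289 to 432 CPM in the 29 sham mice (median 362) and from 202 to 344 CPM in the 29 TBI mice (median 256). It fell by 0.48 over the genotypes (SE 0.04, adjusted p = 1.03e-15), and 25 of 29 TBI mice lay below every sham mouse. Kcna1 ranged from 217 to 304 CPM in sham (median 249) and from 168 to 250 CPM in TBI mice (median 199), a log2 fold change of -0.32 (SE 0.03, adjusted p = 8.73e-12). Kcna6 behaved differently. It had 122 to 152 CPM in sham (median 135) and 122 to 148 CPM in TBI mice (median 134), a log2 fold change of -0.01 (SE 0.02, adjusted p = 0.781), and no TBI mouse lay below the lowest sham mouse. The less abundant Kcna4 (median 27.9 CPM in sham and 26.9 CPM in TBI mice) was not called in any genotype.

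The beta subunits bind Kv1 channels in the cytoplasm and alter their inactivation and surface traffic. Kcnab3 had 48, 56.1 and 66.2 CPM in E3/Abca1+/+ sham mice and 21.6, 30.8 and 36.3 CPM in TBI mice, without overlap. E4/Abca1+/- mice had 39.0, 44.5 and 63.7 CPM in sham and 18, 31.1 and 63.1 CPM in TBI mice. Of the 29 TBI mice, 28 lay below every sham mouse of their genotype, and E4/Abca1+/- TBI replicate 8 was the exception. Over the genotypes Kcnab3 fell by 0.76 (SE 0.08, adjusted p = 3.80e-12). Within E4/Abca1+/- mice its adjusted p was 0.0439. It was no longer called there with sex as a covariate (adjusted p = 0.0502) or without sham replicate 2 (0.0513), and had an adjusted p of 0.000998 without TBI replicate 8. Kcnab2, the most abundant beta subunit, fell by 0.27 (SE 0.03, adjusted p = 1.77e-09), from a median of 629 CPM in sham to 514 CPM in TBI mice, and Kcnab1 by 0.23 (SE 0.03, adjusted p = 5.96e-08).

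Kcnb genes encode the Kv2 delayed rectifiers of neuronal cell bodies and dendrites. Kcnb2 had a median of 17.3 CPM in sham and 13.8 CPM in TBI mice, fell by 0.34 over the genotypes and was called in 3 of them. Kcnc genes encode the Kv3 channels that let neurons, many of them interneurons, fire fast. Kcnc1 and Kcnc2 fell by 0.26 and 0.23, and each was called in 3 genotypes. Kcnc4, with a median of 98.8 CPM in sham and 94.1 CPM in TBI mice, had a log2 fold change of -0.10 (SE 0.04, adjusted p = 0.0516).

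The Kcnd genes encode Kv4 channels, which carry the dendritic A-type current. Kcnd2 ranged from 121 to 157 CPM in sham (median 134) and from 83.9 to 138 CPM in TBI mice (median 112), and fell by 0.27 (SE 0.03, adjusted p = 1.00e-10). Kcnd3, at nearly the same level in CPM, ranged from 119 to 170 CPM in sham (median 147) and from 105 to 183 CPM in TBI mice (median 148), and its log2 fold change was -0.02 (SE 0.04, adjusted p = 0.74). The Kcnq genes encode subunits of the M current, which restrains repetitive firing. Kcnq3 ranged from 46.3 to 74.1 CPM in sham (median 59.4) and from 28.6 to 55.2 CPM in TBI mice (median 43.7) and fell by 0.43 (SE 0.06, adjusted p = 2.07e-09).

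Among the sodium channels, Scn1a, the channel of parvalbumin interneurons that is mutated in Dravet syndrome, changed most. It had 169, 193 and 201 CPM in E3/Abca1+/+ sham mice and 105, 122 and 138 CPM in TBI mice. In E4/Abca1+/+ mice it had 170, 223 and 250 CPM in sham and 103, 144 and 168 CPM in TBI mice. Neither pair of groups overlapped, and of all 29 TBI mice 28 lay below every sham mouse of their genotype. Over the genotypes Scn1a fell by 0.60 (SE 0.04, adjusted p = 4.00e-17). Scn8a, which carries most of the current at axon initial segments and nodes, fell by 0.39 (SE 0.04, adjusted p = 4.66e-13), from a median of 423 to 319 CPM. Scn2a, the channel of young axons and of pyramidal neurons, fell by 0.25 (SE 0.03, adjusted p = 1.40e-09), from a median of 447 to 377 CPM. Scn3a, which is highest in the embryo, had medians of 58.7 CPM in sham and 55.9 CPM in TBI mice (log2 fold change -0.06, SE 0.03, adjusted p = 0.133). Scn7a and Scn9a had sham means of 5.18 and 3.91 CPM and were not called in any genotype.

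Of the 9 calcium channel genes 8 were lower over the genotypes, and Cacna1s, at 0.36 (SE 0.16, adjusted p = 0.0544), was not called. Cacna1i, a T-type channel of thalamic and cortical neurons, ranged from 92.5 to 144 CPM in sham (median 116) and from 65.2 to 114 CPM in TBI mice (median 85.7), with 28 of 29 TBI mice below every sham mouse of their genotype. It fell by 0.45 (SE 0.04, adjusted p = 2.91e-14). Cacna1a, the P/Q-type channel of most presynaptic terminals, ranged from 119 to 189 CPM in sham (median 156) and from 90.8 to 154 CPM in TBI mice (median 123), and fell by 0.35 (SE 0.04, adjusted p = 2.39e-12). Cacna1b, the N-type partner at terminals, fell by 0.23 and was called in 2 genotypes. Cacna1e, the R-type channel with the most counts of the family, fell by 0.17 (SE 0.05, adjusted p = 0.00296) and was called only in E4/Abca1+/- mice, a difference between genotypes that the interaction tests given further on did not call. The L-type genes Cacna1c and Cacna1d had log2 fold changes of -0.15 (SE 0.06, adjusted p = 0.0399) and -0.09 (SE 0.03, adjusted p = 0.0053).

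**Figure D2:**
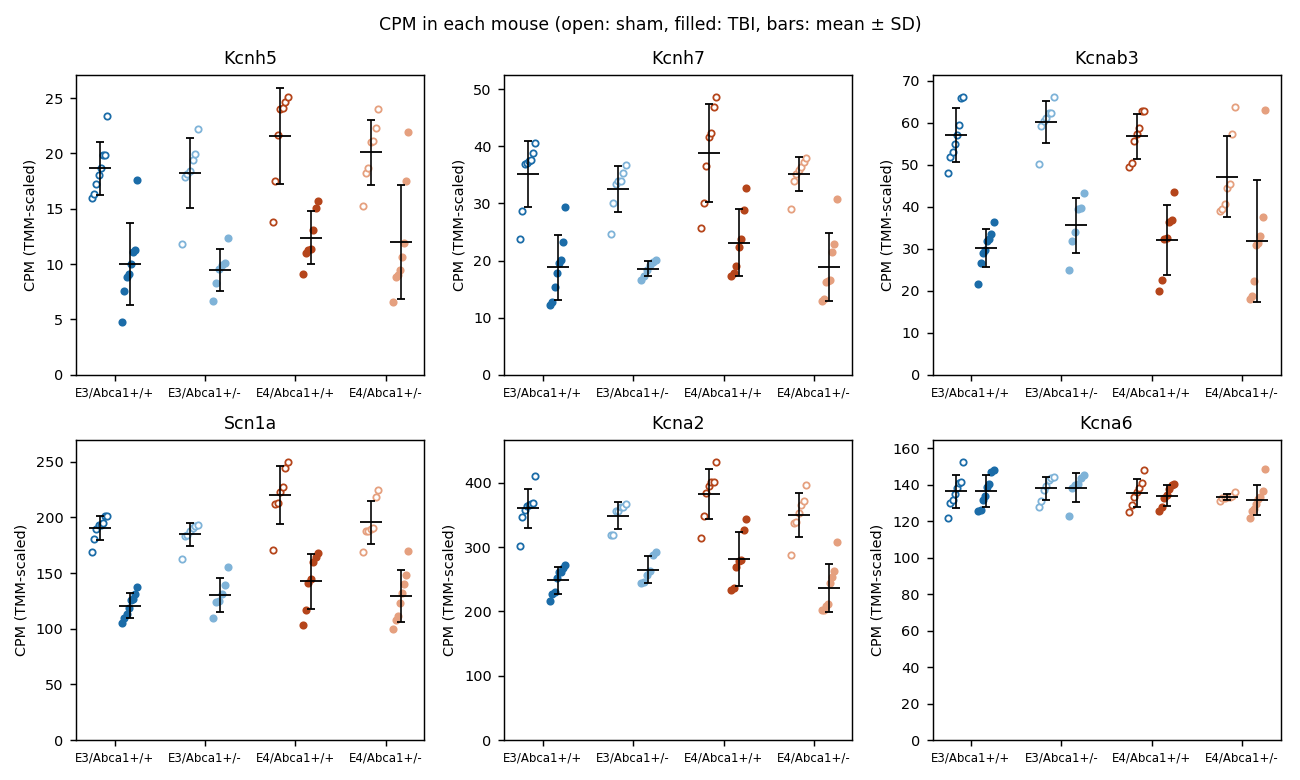
CPM of 6 channel genes (y axis) in each of the 58 mice, in sham (open) and TBI (filled) groups of the 4 genotypes (x axis), with points spread by value and bars for mean ± SD. In Kcnh5, Kcnh7, Kcnab3, Scn1a and Kcna2 the TBI mice sit below most sham mice, with E4/Abca1+/- TBI replicate 8 at the top of its group for Kcnab3 (63.1 CPM), whereas Kcna6 stays at 122 to 152 CPM throughout.

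How completely the groups separated was also counted. Every TBI mouse lay below every sham mouse for 11 of the 47 genes in E3/Abca1+/+ mice (2.03% of all genes), 9 in E3/Abca1+/- mice (3.39%), 6 in E4/Abca1+/+ mice (0.765%) and 6 in E4/Abca1+/- mice (2.39%). Every TBI mouse lay above every sham mouse for 0 of the 47 genes in each genotype, against 4.36%, 6.57%, 3.76% and 7.36% of all genes. Without E4/Abca1+/- TBI replicate 8 the count in that genotype was 18 (4.58% of all genes). No channel gene separated within all 4 genotypes (0.0330% of all genes), and without that mouse Cacna1i, Kcnab3 and Scn1a did (0.178%). Over all 58 mice, whatever their genotype, 0 channel genes separated (0.00659% of all genes).

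Because neuronal transcripts fell as a group, the libraries were also scaled on the summed counts of the 16 pan-neuronal genes in place of TMM. This asks which channel genes fell more or less than the neuronal genes did. The scaling moved the median log2 fold change of all genes over the genotypes from 0.01 to 0.22, and that of all genes in E4/Abca1+/- mice to 0.27. On this scale 18 of the 47 genes were lower over the genotypes (3.41% of all genes) and 11 were higher (79.0%). Kcnh5 (-0.64, SE 0.09), Kcnh7 (-0.63, SE 0.08), Kcnab3 (-0.56, SE 0.07) and Scn1a (-0.39, SE 0.04) were again the lowest. The adjusted p-values of these log2 fold changes were 1.15e-08, 1.78e-10, 1.48e-09 and 3.65e-12. Of the 16 genes called lower in all 4 genotypes, 6 remained so in all 4 on this scale, among them Cacna1i, Kcna2, Kcnh5, Kcnh7 and Scn1a. Kcna6 (log2 fold change 0.20, SE 0.03, adjusted p = 7.16e-10), Kcnd3 (0.20, SE 0.04, adjusted p = 2.70e-05) and Scn3a (0.15, SE 0.04, adjusted p = 0.000268) were among the 11 that were higher.

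**Figure D3:**
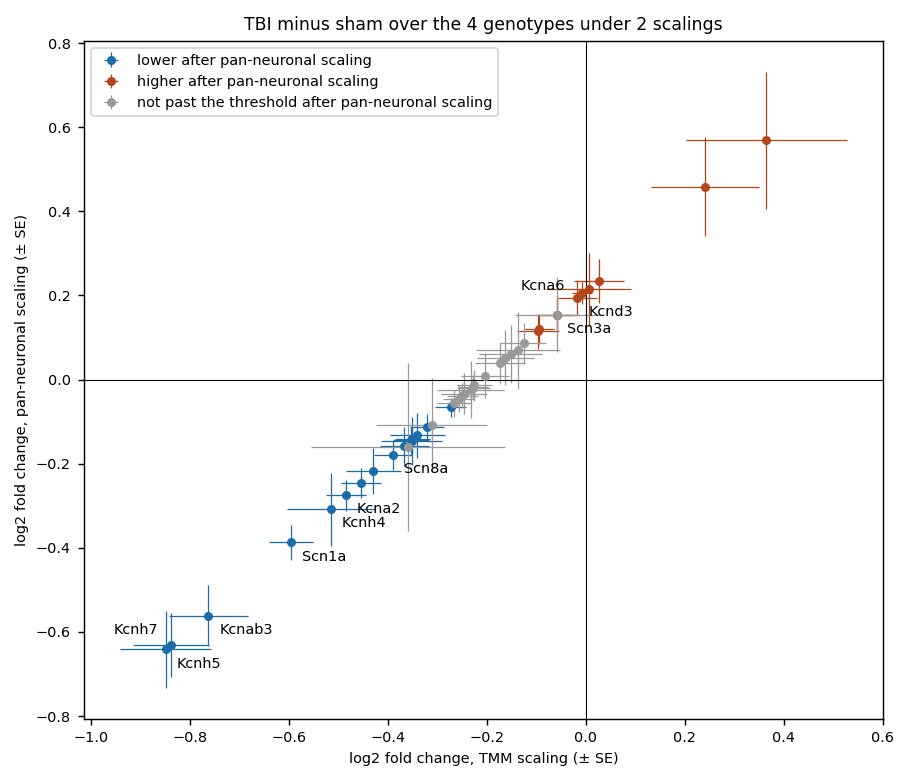
Log2 fold change of TBI minus sham over the 4 genotypes for 43 of the 47 channel genes with TMM scaling (x axis) and with scaling on 16 pan-neuronal genes (y axis), bars ± SE. The points lie on one line shifted upward, with 16 of those drawn lower (blue), 10 higher (red) and the rest not past the threshold (grey) on the neuronal scale.

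A ratio of 2 channel genes within 1 mouse does not depend on any scaling. The pairs below were chosen after the values were seen, so their ratios are a description without a test. The ratio of Kcna2 to Kcna6 counts ranged from 2.18 to 3.14 in sham mice (median 2.65) and from 1.53 to 2.74 in TBI mice (median 1.86). It did not overlap between sham and TBI in 3 of the 4 genotypes, E4/Abca1+/- included, where sham mice had 2.18 to 2.97 and TBI mice 1.53 to 2.07. The ratio of Scn1a to Scn2a ranged from 0.369 to 0.555 in sham (median 0.432) and from 0.263 to 0.508 in TBI mice (median 0.331). Within the Kv4 channels the ratio of Kcnd2 to Kcnd3 had medians of 0.941 in sham and 0.783 in TBI mice and overlapped in every genotype. For Scn8a to Scn2a the medians were 0.948 and 0.834, so the make-up of this pair moved less.

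**Figure D4:**
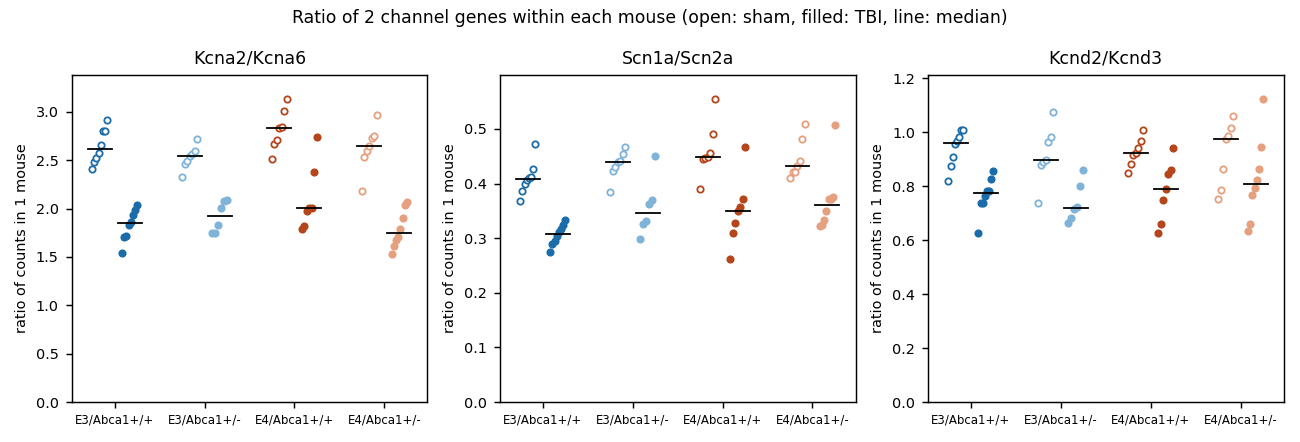
Ratio of the counts of 2 channel genes within each mouse (y axis) in sham (open) and TBI (filled) groups of the 4 genotypes (x axis), points spread by value, lines at the median. The Kcna2 to Kcna6 ratio is lower in TBI than in every sham mouse of the genotype except in E4/Abca1+/+ mice, and the Kcnd2 to Kcnd3 ratio overlaps in every genotype.

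The bases upstream of the start site were read for genes that fell and for one that did not, to show what sequence they share. Of the 47 genes, 32 had a window of 250 bases before to 50 after the start in RefSeq (GRCm38.p6), 45 windows in all. Their median GC content was 58.3% against 60.3% in 15023 windows of 11751 genes, and the ratio of observed to expected CG dinucleotides was 0.525 against 0.723. The 60 bases before the start are printed in the direction of transcription, with CG dinucleotides in capitals. Kcnh5 (chr12:75177333-75177392, minus strand), Kcnh7 (chr2:63184288-63184347, minus strand), Kcna2 (chr3:107101507-107101566, plus strand) and Kcnd2 (chr6:21215286-21215345, plus strand) were called lower in all 4 genotypes, and Kcnd3 (chr3:105451830-105451889, plus strand) in none. None of these stretches overlaps an annotated exon. The stretch of Scn1a, also called lower in all 4 genotypes, does overlap one and is not printed. It holds 1 CG dinucleotide, fewer than any stretch below, and its window had 47.3% GC and a CG ratio of 0.305.
Kcnh5: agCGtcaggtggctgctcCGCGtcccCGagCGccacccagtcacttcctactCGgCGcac
Kcnh7: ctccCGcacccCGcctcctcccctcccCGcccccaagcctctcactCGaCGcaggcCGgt
Kcna2: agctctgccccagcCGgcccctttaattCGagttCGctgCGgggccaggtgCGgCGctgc
Kcnd2: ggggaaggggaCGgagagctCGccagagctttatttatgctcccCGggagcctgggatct
Kcnd3: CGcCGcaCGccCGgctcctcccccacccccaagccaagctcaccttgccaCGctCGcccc
These stretches hold 7, 6, 6, 3 and 6 CG dinucleotides in that order, so Kcnd3 lies within the range of the genes that fell. Over the whole windows, searched on both strands, the SP1 box GGGCGG was found in 21 of the 32 genes against 66.6% of all genes with a window, the E-box CAGCTG in 9 (28.1%) against 18.5%, TATAAA in 3 against 9.06% and the cAMP response element core TGACGT in 3 against 12.6%, and the core of RE1, the site bound by the neuronal repressor REST, in 0 against 0.0681%. None of these shares was tested.

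Partners of the pore-forming subunits, the Cacng family and other channels were followed in lists of their own over the 4 genotypes. There 24.3% of all genes were lower and 29.0% higher. All 4 sodium channel beta subunits were lower after TBI. Scn4b, which supports resurgent current, had the largest fall (log2 fold change -1.07, SE 0.19, adjusted p = 4.08e-06), which is given with all mice only. The summed level of these subunits in E4/Abca1+/- TBI mice had a median of 809 CPM. Its highest value there, 1122 CPM, lay above the highest of E4/Abca1+/- sham mice (1081 CPM). All 4 calcium channel beta subunits were lower, led by Cacnb4 (-0.48, SE 0.05, adjusted p = 1.40e-11). Of the auxiliary subunits of Kv4 channels 5 of 6 were lower, of the modifier Kv subunits that join Kv2 channels 7 of 9, and of the scaffold genes of axon initial segments and nodes 12 of 16, among them Ank3, the organizer of the initial segment (-0.31, SE 0.04, adjusted p = 8.30e-10). The median log2 fold changes of these lists were -0.29, -0.17, -0.15, -0.29 and -0.14. Of the calcium channel alpha2delta subunits 2 of 4 were lower and 1 higher, of the Cacng genes 3 of 6 lower and 1 higher, of the Kcne subunits 0 of 3 lower and 2 higher, and of the HCN channels 1 of 4 lower. Of the calcium-activated potassium channels 4 of 9 were lower and 1 higher, of the inward rectifiers 6 of 13 lower and 2 higher, and of the two-pore channels 5 of 10 lower and 1 higher.

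Whether the fall differed between genotypes was tested by interaction terms. For the 47 genes, 0 were called for an Abca1 by injury interaction in APOE3 or APOE4 mice, for an isoform by injury interaction in Abca1+/+ or Abca1+/- mice, or for a sex by injury interaction, and 0 of all genes (0%) were called by edgeR in any of these 5 tests. At an unadjusted p under 0.05 the edgeR counts were 1, 2, 2, 5 and 2 of the 47 in that order, against 326, 735, 321, 962 and 1133 of all 15171 genes. DESeq2's Wald test called 0 of the 47 in each. The 29, 26, 22 and 19 genes called in the single genotypes therefore do not show that the fall was larger in one of them. In E4/Abca1+/- mice the median over the 47 genes was the most negative (-0.34), and in the same group the microglial summed level was the highest (median 1137 CPM against 756 to 827 CPM in the other TBI groups) and the pan-neuronal one the lowest (median 10352 CPM against 10905 to 11047 CPM). Their part in the channel values was not tested.

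Averaged over Abca1 and injury, 9 of the 47 genes differed between APOE4 and APOE3 mice (15.0% of all genes). In each direction the count was near the share of all genes, so the channel genes did not stand out as a set. Whether the called genes gathered in a family was not tested. Lower in APOE4 mice were 5 (6.99% of all genes), all of them calcium channels: the T-type genes Cacna1h (log2 fold change -0.24, SE 0.05, adjusted p = 0.000282) and Cacna1g (-0.19, SE 0.05, adjusted p = 0.00327), and Cacna1e (-0.17), Cacna1a (-0.10) and Cacna1d (-0.09). Higher were 4 (8.03%), among them Kcnh5 (0.27, SE 0.09, adjusted p = 0.0401), Scn1a (0.13, SE 0.04) and Scn3a (0.11, SE 0.03). The log2 ratio of APOE4 to APOE3 group means for Cacna1h was -0.16 in sham and -0.08 in TBI Abca1+/+ mice. In Abca1+/- mice it was -0.28 and -0.44. For Cacna1g the values were -0.08 and -0.06 against -0.29 and -0.33, and for Cacna1a -0.05 and 0.04 against -0.14 and -0.26. The ratio for Scn1a was 0.21 and 0.24 in Abca1+/+ mice, against 0.08 and -0.02 in Abca1+/- mice. For Cacna1d, Cacna1e, Kcnh5 and Scn3a the sign was the same in sham and TBI mice of both Abca1 genotypes. These differences between Abca1 genotypes were not tested. Without E4/Abca1+/- TBI replicate 8, Kcnh5 and Scn1a were not called, and without E3/Abca1+/- sham replicate 1, Cacna1d, Kcnh5 and Scn1a were not.

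Between Abca1+/- and Abca1+/+ mice, averaged over isoform and injury, 9 of the 47 genes were lower (8.39% of all genes) and 0 higher (9.49%; 17.9% in either direction). At an unadjusted p under 0.05, edgeR gave 0 higher as well. Kcna1 (log2 fold change -0.16, SE 0.03, adjusted p = 0.000721), Kcnc2 (-0.15, SE 0.03, adjusted p = 0.000234) and Scn2a (-0.15, SE 0.03, adjusted p = 0.000534) had the smallest adjusted p-values. Kcnb2 (-0.16), Cacna1e (-0.16), Scn3a (-0.14), Cacna1a (-0.13) and Kcnd2 (-0.09) were also lower. For Kcnc2 and Scn2a the log2 ratio of group means was below 0 in both isoforms with and without injury (-0.12 to -0.20 and -0.11 to -0.24). The same held for the sign in Kcna1, Kcnb2, Cacna1e, Scn3a and Kcnd2. For Cacna1a the ratio was -0.07 in sham and 0.01 in TBI APOE3 mice, against -0.17 and -0.30 in APOE4 mice. The Abca1+/- libraries were deeper (median 18871446 counts, n = 28) than the Abca1+/+ libraries (median 8350020, n = 30). With every library thinned to 4421308 counts the median log2 fold change over the 47 genes was -0.0618, against -0.0628 unthinned, and 5 genes were called. Thinning evens the totals only, and other differences between the Abca1+/- and Abca1+/+ libraries were not tested. The channel transcripts were long (median exon length 8593 bp against 4439 bp for all 14710 genes with a length), and the share of genes lower in Abca1+/- mice rose with exon length from 2.28% up to 2 kb to 20.2% over 8 kb, against 19.1% of the channel genes. For TBI over the genotypes, 41.2% of genes over 8 kb were lower, against 72.3% of the channel genes.

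**Figure D5:**
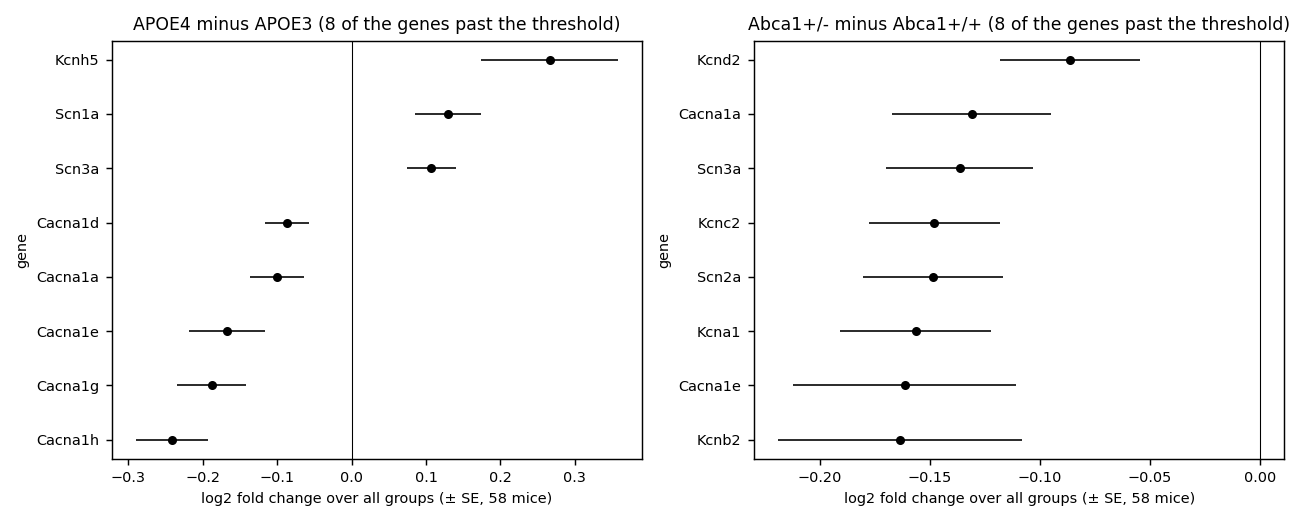
Log2 fold change over all groups (x axis, bars: ± SE, 58 mice) of channel genes past an adjusted p of 0.05 (y axis) between APOE4 and APOE3 mice (left) and between Abca1+/- and Abca1+/+ mice (right). On the left 5 calcium channel genes lie below 0 and 3 other genes above it, and on the right all 8 drawn lie below 0.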

How the data were processed

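RNA-seq libraries were made from the hippocampus and cortex of 58 mice, 1 per mouse. The authors deposited read counts per gene, not normalized, which they made with Subread 1.5.0 and featureCounts on mm10 (submitters' processing notes and the paper's methods). The table holds 15171 genes after 2 empty lines at its end were dropped. Groups came from the labels. Counts were scaled here with TMM factors (0.954 to 1.038) and tested with edgeR 4.0.16 (glmQLFit and glmQLFTest, R 4.3.3) after filterByExpr, which removed 0 genes. TBI was compared with sham within each genotype, and interactions and averages over groups used all mice concerned. SE is the log2 fold change divided by the square root of F. Benjamini-Hochberg adjustment covered all genes, and the threshold was 0.05. No 2 mice had identical counts. Exon lengths are unions of exons in GENCODE M21. Total counts ranged from 4421308 to 37877346 per mouse, and 3 counts were taken as the floor. The test was tried on simulated counts.

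Alternatives were DESeq2 1.42.0 (size factors, Wald test), no filter, at least 10 counts in every mouse, a term for sex, 1 joint fit of the 58 mice, thinning of every library to 4421308 counts, scaling on 16 pan-neuronal genes, and leaving out 7 libraries with outlying regional markers. Leaving out E4/Abca1+/- sham replicate 2, E4/Abca1+/- TBI replicate 8 or E3/Abca1+/- sham replicate 1 was chosen after seeing the data. Genes were named when called in all 4 genotypes, when of highest mean CPM in their family, when among the 5 largest changes in a direction, or when called for isoform, Abca1 or an interaction. Members named beyond this were chosen after their values were seen. The channel genes and the lists were chosen with earlier results of these data known. Figures were drawn with matplotlib in Python. Of the 47 genes, 4 enter the counts and medians but are not reported here by name.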

Additional observations from a re-analysis of the deposited data

Results flagged for a closer look

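Within groups, 200 sets of values (25 channel genes in 8 groups) were searched for a mouse apart from the others of its group by Dixon's criterion, which flags about 1 in 20 groups by chance. It singled out 22 values in 11 mice.

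E4/Abca1+/- TBI replicate 8, the mouse with high striatal and low hippocampal genes, held 6 of them. It was the highest of its group for Kcnab3 (63.1 CPM, next 37.6), Kcnh4 (17.8, next 6.47), Kcnh1 (136, next 87.8), Kcnh3 (164, next 121) and Kcna1 (249, next 197), and the lowest for Cacna1e (154 CPM, next 188). E3/Abca1+/- sham replicate 1 also held 6. It was the highest of its group for Cacna1e (339 CPM, next 271), Kcnb2 (21.7, next 17.1) and Scn3a (63.7, next 51.8), and the lowest for Kcnab3 (50.1, next 59.3), Kcnh5 (11.8, next 17.8) and Scn1a (163, next 184).

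The others were spread over 9 mice. In E3/Abca1+/+ mice, TBI replicate 8 was the lowest of its group for Kcnd2 (83.9 CPM) and the highest for Kcnh4 (10.9), TBI replicate 4 the lowest for Cacna1g (61.8), sham replicate 1 the highest for Cacna1i (144) and sham replicate 6 the lowest for Scn3a (44.7). In E4/Abca1+/+ mice, sham replicate 4 was the lowest for Kcna1 (252 CPM) and sham replicate 2 the highest for Kcnc1 (241). In E4/Abca1+/- mice, TBI replicate 6 was the highest for Kcnab2 (626 CPM), sham replicate 6 the highest for Kcnd2 (144) and sham replicate 1 the highest for Kcnh4 (14.0).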

How the results depend on the processing

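The counts of channel genes called kept their direction under DESeq2's size factors and Wald test and with at least 10 counts in every mouse. They also kept it in 1 joint fit of the 58 mice and in the fit without 7 libraries. The setting without a filter repeats the main fit, since the filter removed nothing, and so tests nothing. In every setting run, 0 channel genes were called for an interaction. Over all genes DESeq2's Wald test called 3 for isoform by injury in Abca1+/- mice and 1 for sex by injury, and thinning called 1 for the former. Scaling on pan-neuronal genes gave 13, 10, 11 and 11 lower (1.84%, 1.99%, 0.837% and 1.05% of all genes) and 5, 5, 1 and 5 higher genes (49.6%, 54.4%, 32.6% and 60.6%) in E3/Abca1+/+, E3/Abca1+/-, E4/Abca1+/+ and E4/Abca1+/- mice, and 18 lower and 11 higher over the genotypes. On that scale 14, 14, 16 and 12 of the 47 log2 fold changes, called or not, turned from below to above 0 in the same order, and 14 over the genotypes. Of those called on either scale, the ones reported were over the genotypes Cacna1c (0.0612), Cacna1d (0.12), Cacna1e (0.0388), Cacna1h (0.00761), Kcna3 (0.0520), Kcna4 (0.15), Kcna6 (0.20), Kcnc4 (0.11), Kcnd3 (0.20), Kcnh2 (0.0860) and Scn3a (0.15), in E3/Abca1+/+ mice Cacna1d (0.16), Kcna6 (0.21), Kcnc2 (0.0133), Kcnd3 (0.19) and Scn3a (0.18), in E3/Abca1+/- mice Kcnh2 (0.0126), in E4/Abca1+/+ mice Kcna6 (0.17) and in E4/Abca1+/- mice Kcna6 (0.23), Kcnab1 (0.0392) and Kcnd2 (0.00138). Thinning to the lowest total gave 13 lower genes in E3/Abca1+/- mice, where Kcnb2 turned to 0.00638, and 5 genes each for isoform and for Abca1; fewer counts were tested there. Of the 16 genes lower in all 4 genotypes, 11 remained so after thinning, 6 with pan-neuronal scaling, 14 without the 7 libraries, 15 with sex as a covariate, 1 joint fit or without E4/Abca1+/- sham replicate 2, and 16 in each of the other 6 settings, no filter included. Among the 28 genes followed, others joined the set. These were Kcnc1 and Scn2a with DESeq2's Wald test, and Kcnc1, Kcnc2 and Scn2a with sex as a covariate or in 1 joint fit. Without E4/Abca1+/- TBI replicate 8, Kcnh4 joined. With sex as a covariate 1 gene was higher over the genotypes (Scn7a), and without E4/Abca1+/- sham replicate 2 also 1 (Cacna1s); the cause was not tested. No paired analysis was possible because the replicate numbers follow accession order and the labels pair no mice. Genes under 10 CPM make up most of those called in no genotype, and the part of depth in this was not tested.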
